A study of Homo sapiens with 6 samples.

Results

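The 3 human genes of the ADAR family of RNA editing enzymes, ADAR, ADARB1 and ADARB2, were placed against lists of H3K9me3 domains. The genes were chosen by family and by their domain calls in these same libraries, since ADARB2 lies under a domain called in the control cells alone. Their values are therefore a description, and no test was run on them. They are 3 of the 20033 protein-coding genes of GENCODE 44 on chromosomes 1 to 22, X and Y.

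The domains come from chromatin immunoprecipitation and sequencing (ChIP-seq) of trimethylated lysine 9 of histone H3 in MCF10.DCIS.com, an established human breast line that models ductal carcinoma in situ. Control monolayers (CTR) were a stable line made with the inducible lentivirus pSLIK-neo-EV, which carries no insert, and RAB5A monolayers were made in the same way with pSLIK-neo-RAB5A, so that both carry the vector and its neo selection. The vector responds to doxycycline, and both lines share the oncogenic H-RAS of their parent. The dose and time of induction for these libraries are not given in the sources used here. RAB5A is a GTPase of early endosomes, and the study asked whether the mark is rearranged when its expression sets jammed monolayers in motion. The paper reports that the ChIP-seq profile of H3K9me3 over the genome did not change with RAB5A. It reports a lower signal over heterochromatin by SAMMY-seq, a sequencing method for chromatin accessibility. Each condition was assayed once with the antibody ab176916 and once with ab8898, which gives 4 libraries of 1 cell line. The labels do not say whether the libraries of a condition came from separate cultures, so the spread between them includes the antibody and may be technical. The 2 input libraries were not analysed here.

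ADAR enzymes bind double-stranded RNA and deaminate adenosine to inosine, which ribosomes and splicing factors read as guanosine. ADAR (ADAR1) is made in most cells, has an interferon-inducible long form, and marks cellular double-stranded RNA so that innate sensors leave it alone. ADARB1 (ADAR2) recodes transcripts of neuronal receptors, of which the glutamate receptor subunit GRIA2 is the classic case, and ADARB2 (ADAR3) is a brain-restricted relative that binds RNA but for which no editing activity is known. H3K9me3 marks constitutive heterochromatin, which is largely silent and rich in repeats.

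The lists held 78 domains in control ab176916, 76 in control ab8898, 79 in RAB5A ab176916 and 76 in RAB5A ab8898, and they covered 304.6, 302.4, 302.6 and 328 Mb. In RAB5A ab8898 a joined domain of 92.8 Mb on chromosome X spanned what control ab8898 had as separate domains of 30.8 and 40 Mb. All limits are on hg38 and fall on multiples of 200 kb. The lists hold no read counts, so the depth behind each call is unknown and no counting error can be given. A region outside a list is one that was not called, and its signal is not visible.

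The promoters of the 3 genes are shown because the heterochromatin calls covered one of them and not the other pair. The windows of 300 bases span a transcription start, most of each lying before it, and are RefSeq sequences of GRCh38.p14, written 5′ to 3′ on the strand of the gene, with every CG dinucleotide in capitals. The table holds 8 such windows for the 3 genes, and the first of each is printed: chr10:1737476-1737775 on the minus strand for ADARB2, chr21:45074328-45074627 on the plus strand for ADARB1 and chr1:154627948-154628247 on the minus strand for ADAR.
ADARB2: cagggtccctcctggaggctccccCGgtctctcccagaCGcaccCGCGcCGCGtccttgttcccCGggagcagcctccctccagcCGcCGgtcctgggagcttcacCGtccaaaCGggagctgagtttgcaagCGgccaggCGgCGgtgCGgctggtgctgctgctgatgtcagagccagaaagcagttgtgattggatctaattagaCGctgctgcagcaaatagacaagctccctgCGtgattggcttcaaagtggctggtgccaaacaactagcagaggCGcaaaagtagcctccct
ADARB1: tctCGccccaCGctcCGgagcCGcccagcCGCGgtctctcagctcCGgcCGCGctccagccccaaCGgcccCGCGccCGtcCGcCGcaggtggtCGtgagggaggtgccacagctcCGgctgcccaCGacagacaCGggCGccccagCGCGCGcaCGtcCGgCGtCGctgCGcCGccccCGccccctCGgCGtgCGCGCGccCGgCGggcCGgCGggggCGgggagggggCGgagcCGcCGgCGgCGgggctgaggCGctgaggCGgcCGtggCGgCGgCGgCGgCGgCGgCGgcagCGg
ADAR: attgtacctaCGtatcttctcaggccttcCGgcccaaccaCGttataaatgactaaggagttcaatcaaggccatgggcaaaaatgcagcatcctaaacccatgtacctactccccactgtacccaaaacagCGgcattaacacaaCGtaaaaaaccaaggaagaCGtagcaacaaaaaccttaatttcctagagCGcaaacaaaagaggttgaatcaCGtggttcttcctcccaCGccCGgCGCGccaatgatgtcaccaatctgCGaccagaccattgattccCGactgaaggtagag

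The ADARB2 window held 18 CG dinucleotides, with a GC content of 62% and a CpG observed over expected ratio of 0.625, at percentile 52.6 of the 35116 windows in the table. The ADARB1 window was the richest of the printed sequences, with 56 CG, 84.3% GC and a ratio of 1.05, at percentile 95.1. The ADAR window held 14 CG at 47.7% GC and a ratio of 0.862, at percentile 75.8. The median window had 58.7% GC and a ratio of 0.579. All 3 printed windows were above the median in CpG ratio, that of ADARB2 by the least. The other windows of ADAR and ADARB1 varied, down to 0.617 for ADAR and 0.570 for ADARB1, so the ratio did not separate ADARB2 from the other genes.

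Short motifs were searched on both strands as exact letters. CCAAT, the box bound by NF-Y, was found at 2 places on the opposite strand of the ADARB2 window and at 2 places on the gene's own strand of the ADAR window, and 34.6% of all windows hold it. GGGCGG, the GC box of SP factors, was found 5 times in the ADARB1 window, 2 on the gene's strand and 3 on the other, and in neither of the other printed windows; 45.0% of all windows hold it. TATAAA was found once, in the ADAR window, against 11.5% of all windows. GAAANNGAA, the core of an interferon response element, was in none of the printed windows and in 8.11% of all windows. A match describes the letters in these windows and nothing about a factor.

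ADARB2 (ENSG00000185736.16) spans chr10:1177313-1737525 on the minus strand, 560.213 kb with 10 exons in its canonical transcript (ENST00000381312.6), and it ranks 257th in length among protein-coding genes. Of its body, 95.95% lay in a domain in control ab176916 and 100% in control ab8898. In RAB5A ab176916 the share was 0%, and in RAB5A ab8898 it was 0%. Both control libraries were thus near or at full cover and neither RAB5A library had any, with no overlap between the conditions. The mean was 97.98% ± 2.86 (SD, n = 2) in control, and RAB5A minus control was −97.98 percentage points, −95.95 with ab176916 and −100 with ab8898. The choice of the gene fixes this direction, and 2 libraries against 2 cannot give an exact permutation p below 0.33. Of the 20033 protein-coding genes, 4 (0.0200%) overlapped a domain in both control libraries and neither RAB5A library. The reverse held for 11 (0.0549%).

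The control libraries differed from each other at the 3′ end of ADARB2. The domain of control ab8898 held all 10 exons, all 2217 bp of coding sequence and all 7 annotated transcript starts. The domain of control ab176916 began 1 bin later, inside the gene, and held 7 exons whole and 1 in part, 1829 bp or 82.5% of the coding sequence, and 5 of the 7 transcript starts. The canonical start and its promoter window were inside the domain in both control libraries, and no domain reached them in RAB5A. As limits are known only to 200 kb, the exon at the edge should not be read as a boundary.

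**Figure D1:**
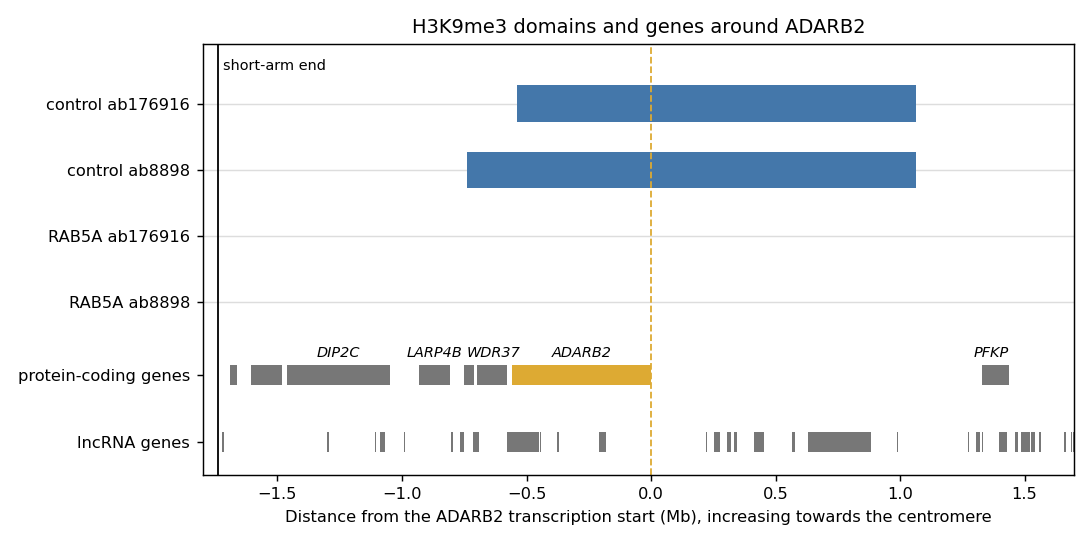
Domains called in each of the 4 libraries (blue bars) and genes (grey, ADARB2 in yellow) by distance in Mb from the ADARB2 transcription start (dashed line), with the end of the short arm as a solid line. Both control libraries have a bar that ends 1.06 Mb beyond the start, and both RAB5A rows are empty.

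The chr10 domain was chr10:1200001-2800000 in control ab176916, 1.6 Mb or 8 bins, and chr10:1000001-2800000 in control ab8898, 1.8 Mb or 9 bins. Both ended at the same bin, 1.06 Mb beyond the ADARB2 start, and 266.3 kb before PFKP, the platelet form of phosphofructokinase and the next protein-coding gene. Towards the telomere they began 1.2 Mb and 1.0 Mb from the end of the chromosome. ADARB2 made up 33.6% of the domain in control ab176916 and 31.1% in control ab8898. The larger part of the domain was therefore not ADARB2 but the stretch upstream of it.

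In control ab176916, ADARB2 was the 1 protein-coding gene among 20 annotated genes of the domain, beside 16 long non-coding RNA (lncRNA) genes, 1 miRNA gene (MIR6072) and 2 snRNA genes. In control ab8898 there were 25 genes, 5 of them protein-coding. The 4 added were GTPBP4, a GTPase of ribosome assembly with 63.3% of its body in the domain, IDI1 and IDI2, isomerases of the isoprenoid pathway at 100%, and WDR37, the nearest protein-coding neighbour of ADARB2 at 16.3 kb, at 100%. These 4 were in a domain in that library alone and in none of the other 3, so their calls were not shared between the antibodies in control as that of ADARB2 was.

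ADARB2-AS1, an antisense RNA gene of 30.352 kb within ADARB2, lay whole in the domain in both control libraries. LINC00200, of 129.659 kb, runs opposite to the 3′ part of ADARB2 and was covered to 69.0% in control ab176916 and to 100% in control ab8898. LINC00700, LINC00701, LINC02645 and LINC02662 lie upstream of ADARB2 and were covered whole in both. None of these was in a domain in RAB5A, where the nearest domain to ADARB2 was chr10:36800001-38600000, at 35.06 Mb, in both libraries.

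The score of a domain, given by the domain caller without a stated unit, was compared only within a list. The domain over ADARB2 scored 8.00 in control ab176916, where scores ran from 7.58 to 125, and ranked 6 of 78 from the lowest. In control ab8898 it scored 9.89 in a range of 8.89 to 131 and ranked 9 of 76. In both lists it sat near the bottom, below the lower quartiles of 9.68 and 10.7. Divided by the number of bins, the score ranked 34 of 78 and 32 of 76, near the middle, and its length ranked 9 of 78 and 13 of 76 from the shortest. The low rank thus went with a short domain.

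A low rank alone did not mark a domain as called in 1 condition. Of the 5 domains below it in control ab176916, 4 were called in all 4 libraries and 1 in 3. Of the 8 below it in control ab8898, 6 were called in all 4 libraries, 1 in 3 and 1 in 2. Over the whole lists, 71 of 78 and 70 of 76 domains were called in all 4 libraries.

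Domains with no partner in the other condition with the same antibody numbered 3 in control ab176916, 3 in control ab8898, 4 in RAB5A ab176916 and 4 in RAB5A ab8898. Among the 19 lowest scores of each list were 1, 2, 4 and 3 of these. The chr10 domain was the one domain called with both antibodies in control and with neither in RAB5A. The reverse was found for chr5:6800001-8800000, ranked 3 of 79 and 1 of 76 in the RAB5A lists, and for chr12:118400001-119600000, ranked 5 of 79 and 3 of 76. In both RAB5A lists only 1 bin separated the chr5 domain from chr5:2000001-6600000, which had a counterpart in all 4 lists. All 3 regions called by both antibodies in 1 condition alone thus had scores among the lowest 9 of their lists.

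**Figure D2:**
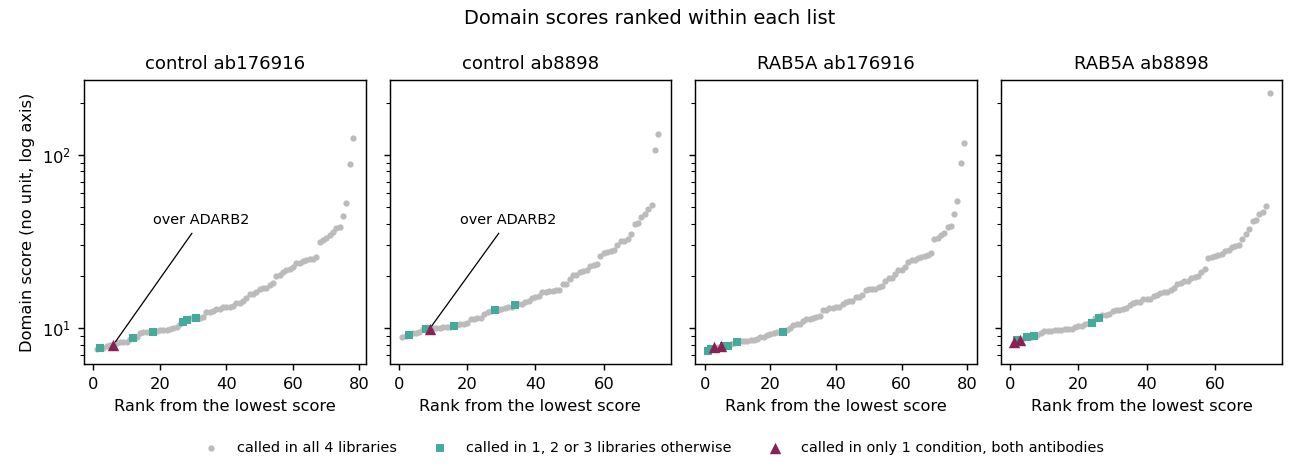
Score of each domain (no unit, log axis) against its rank from the lowest within its list, 1 panel per library, with grey points for domains called in all 4 libraries, squares for other domains and triangles for domains called with both antibodies in 1 condition alone. The triangles over ADARB2 stand at rank 6 of 78 and 9 of 76, and those of the RAB5A lists at ranks 3 and 5 of 79 and 1 and 3 of 76.

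Elsewhere on chromosome 10, the calls that did not touch ADARB2 were shared or fell in 1 library. The domain chr10:36800001-38600000 was in all 4 lists, at ranks 22 of 78, 21 of 76, 18 of 79 and 15 of 76. The domain chr10:128200001-132200000 near the other end was in all 4 as well, at ranks 64, 64, 66 and 67. A domain of 3.6 Mb at chr10:80600001-84200000 was in control ab176916 alone, at rank 31 of 78 by score and 4 of 78 per bin. With it, chromosome 10 had 4 domains in control ab176916 (11 Mb, 8.22% of it), 3 in control ab8898 (7.6 Mb, 5.68%) and 2 in each RAB5A library (5.8 Mb, 4.33%). The lower cover of chromosome 10 in RAB5A thus rested on the ADARB2 domain in both antibodies and on 1 further domain in 1 of them.

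ADAR (ENSG00000160710.18) spans chr1:154581695-154628013 on the minus strand, 46.319 kb with 15 exons (ENST00000368474.9) and 33 transcripts. Its body was in no domain in 4 of 4 libraries, and none of its 33 transcript starts was. The nearest domain, chr1:246600001-248800000 at the end of the long arm, was 91.97 Mb away in every library. It ranked 4 of 78, 1 of 76, 8 of 79 and 4 of 76 from the lowest, as low as the ADARB2 domain, and yet was called in every list. ADAR was thus far from called heterochromatin in both conditions.

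On the other side of ADAR, the nearest domain began at chr1:12600001 in all 4 lists, 139.8 Mb away in control and 139.6 Mb in RAB5A, since it ended 1 bin later in RAB5A. Its ranks were 13 of 78, 13 of 76, 29 of 79 and 27 of 76. The remaining domain of the chromosome began at chr1:3800001, at ranks 42 of 78, 45 of 76, 42 of 79 and 46 of 76. The 3 domains covered 6.4 and 6.6 Mb of chromosome 1 in control and 6.6 and 6.8 Mb in RAB5A, from 2.57% to 2.73%. ADAR stands between CHRNB2, a nicotinic receptor subunit gene 1.682 kb away, and KCNN3, a potassium channel gene 69.4 kb away, and neither side had a domain nearer than those named.

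ADARB1 (ENSG00000197381.18) spans chr21:45073853-45226560 on the plus strand, 152.708 kb with 11 exons (ENST00000348831.9) and 15 transcripts, 1.48 Mb from the end of the long arm. Its body was in no domain in 4 of 4 libraries. The nearest domain, chr21:39400001-41200000, was 3.87 Mb away in all 4, at ranks 8 of 78, 6 of 76, 14 of 79 and 9 of 76. Its neighbours are SLX9, a ribosome assembly gene 96.9 kb away, and POFUT2, a protein O-fucosyltransferase gene 37.4 kb away. No domain was called between ADARB1 and the chromosome end in any library. ADARB2 lies 1.18 Mb from its own chromosome end, so the position near an end was common to both genes and the calls were not. Whether position bears on the calls was not tested.

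The other domains of chromosome 21 were on the centromere side. The domain chr21:7800001-11000000 was in all 4 lists, at ranks 60 of 78, 61 of 76, 61 of 79 and 58 of 76. A further one measured 5.8 Mb in control ab176916, 6.8 Mb in control ab8898, 7 Mb in RAB5A ab176916 and 7.4 Mb in RAB5A ab8898, and its furthest end was chr21:25200000, in RAB5A ab8898. Domains covered 10.8 and 11.8 Mb of chromosome 21 in control and 12 and 12.4 Mb in RAB5A, or 23.1%, 25.3%, 25.7% and 26.5%. ADARB1 was thus on the most covered of the 3 chromosomes without being in a domain, and ADARB2 was on a chromosome of which at most 8.22% was covered.

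**Figure D3:**
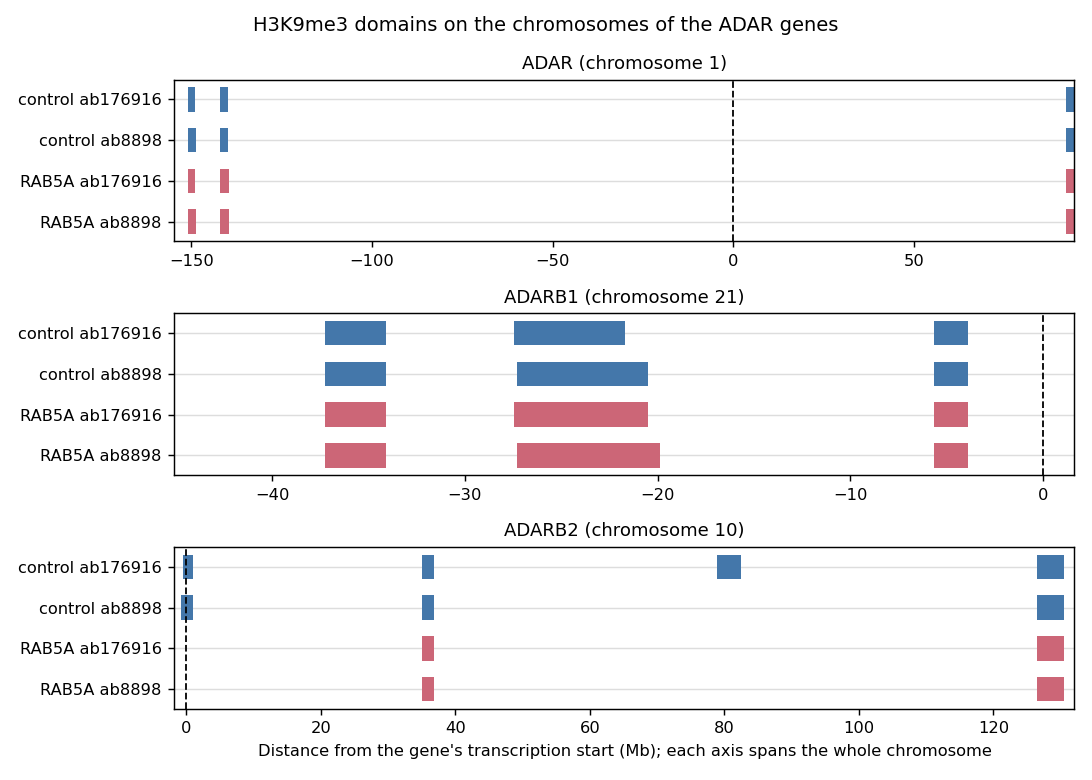
Domains (blue in control, red in RAB5A) along the whole chromosome of each gene by distance in Mb from its transcription start (dashed line), 1 row per library. ADAR has no domain within 91.97 Mb and ADARB1 none within 3.87 Mb in any library, and ADARB2 is crossed by a bar in both control rows and in neither RAB5A row.

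Over all protein-coding genes, at least 1 bp of the body was in a domain for 7.38% of genes in control ab176916, 7.73% in control ab8898, 7.40% in RAB5A ab176916 and 8.32% in RAB5A ab8898. Among the ADAR genes the counts were 1 of 3, 1 of 3, 0 of 3 and 0 of 3. Of 309 autosomal protein-coding genes of at least 500 kb, a class that holds ADARB2, 31, 30, 28 and 28 were in a domain, or 10.03%, 9.71%, 9.06% and 9.06%. Over all autosomal protein-coding genes the mean share of the 4 libraries was 4.69%, lower than for the long genes. An overlap of 1 bp was enough to count, which a longer gene reaches more easily, so these shares are not like for like. A count of 3 genes that were chosen for their calls says nothing about a rate.

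A pattern like that of ADARB2, with a domain over the gene in control with both antibodies and in RAB5A with neither, was shared by 4 protein-coding genes in all, 0.0200% of those examined. The others were named after their values were seen. They were GZMB and GZMH, neighbouring granzyme genes of cytotoxic lymphocytes on chromosome 14, covered to 100% in both control libraries, and CHL1, a neural adhesion gene on chromosome 3, covered to 4.43% in both and not at its start. These 3 lay at the limits of domains called in both conditions, so ADARB2 was the one of the 4 in a domain that had no counterpart in RAB5A. In all 4 libraries 1428 genes were in a domain, and 18331 were in none, the class of ADAR and ADARB1.

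The reverse pattern, in both RAB5A libraries and neither control library, was shared by 11 protein-coding genes, 0.0549%. The domain on chromosome 5 covered ADCY2, an adenylyl cyclase expressed in brain, MTRR, which reactivates methionine synthase, CFAP90 and FASTKD3 to 100%. The domain on chromosome 12 covered SRRM4, a splicing factor of neuronal microexons, HSPB8, a small heat shock protein, and CCDC60 to 100%, SUDS3 to 43.5% and TMEM233 to 12.6%. PDK3 and PCYT1B on chromosome X, named after their values were seen, were covered to 100%. These lay at the limit of a domain called in both conditions, which began at chrX:24400001 in RAB5A and chrX:24800001 in control with both antibodies. No ADAR gene and no listed gene of RNA editing was among the 11.

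**Figure D4:**
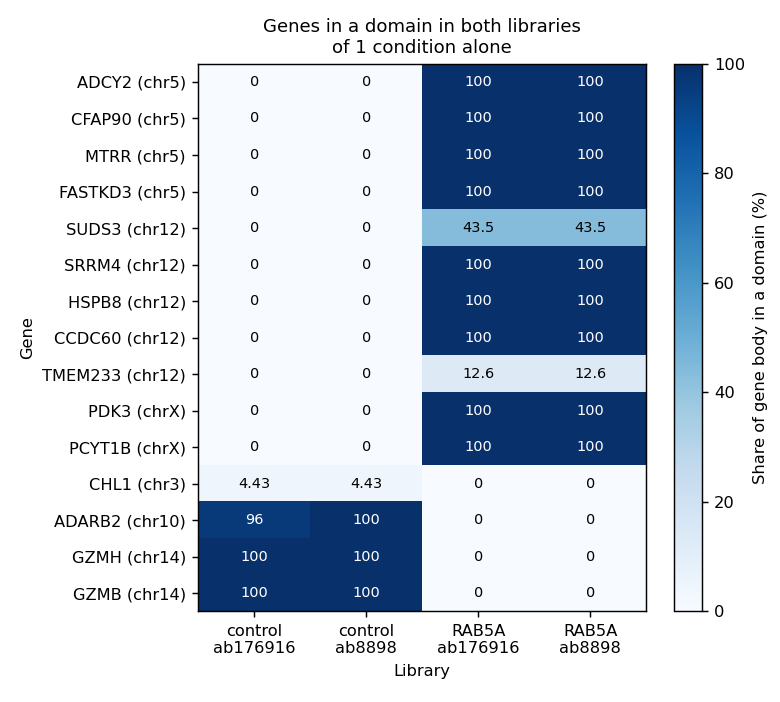
Share of the gene body in a domain (%, colour and printed value) in each library for the 15 protein-coding genes in a domain in both libraries of 1 condition and in neither of the other. ADARB2 is one of 4 genes on the control side, at 95.95% and 100%, against 11 genes on the RAB5A side.

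The sequence around the genes was compared in the same 200 kb bins as the domains. In 1.6 Mb around the transcription start, GC content was 47.9% for ADAR, 52.0% for ADARB1 and 43.4% for ADARB2, and protein-coding starts numbered 56, 34 and 4. The bin with the start itself stood at percentile 81.8, 90.6 and 83.5 of GC among 14324 bins of the genome. The 3 starts thus all lay in GC-rich bins, and ADARB2 stood apart in the few genes around it.

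The domain over ADARB2 in control ab176916 had 2 parts. Its 3 bins over the gene body ran from 45.4% to 48.2% GC (mean 47.2%), with a CpG ratio of 0.317 to 0.322. The 1 bin that the domain of control ab8898 added at the 3′ end of the gene had 46.6% GC and a CpG ratio of 0.371. The 5 bins upstream, shared by both, ran from 39.2% to 40.2% GC (mean 39.8%), with a CpG ratio of 0.249 to 0.291 and no protein-coding start. Taken whole, the domain had 42.6% GC in control ab176916 (list median 41.8%, rank 46 of 78) and 43.0% in control ab8898 (list median 42.2%, rank 53 of 76). Its CpG ratio of 0.296 (median 0.232) and 0.306 (median 0.235) ranked 63 of 78 and 61 of 76, so it was among the more CpG-rich domains of both lists. In control ab176916 it held 1 protein-coding start, or 0.625 per Mb against a list median of 1.77, and in control ab8898 it held 4 starts in 1.8 Mb against a median of 2 per Mb.

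**Figure D5:**
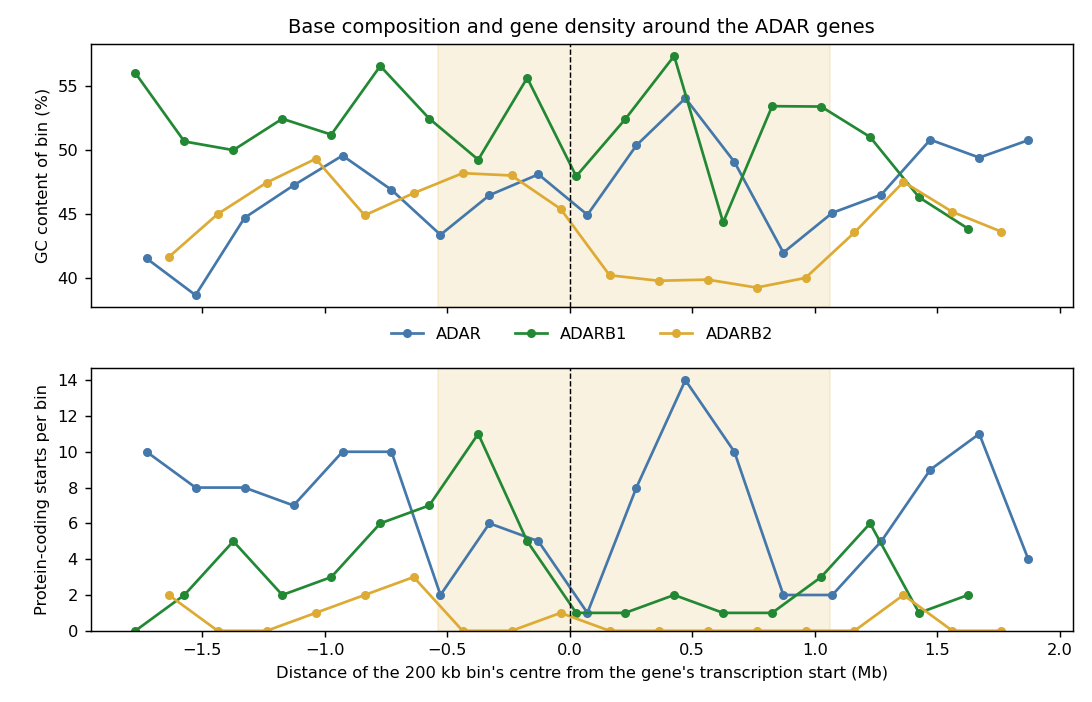
GC content (%, upper panel) and number of protein-coding starts (lower panel) of 200 kb bins by distance in Mb of the bin's centre from the transcription start of ADAR, ADARB1 or ADARB2 (dashed line), in the direction of rising chromosome position, with the shading over the ADARB2 domain of control ab176916. The yellow ADARB2 line falls from a mean of 47.2% over the 3 shaded bins of the gene body to 39.8% upstream, where it has no start.

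Other genes of RNA editing were read from 5 lists of 60 genes in all. Of the 5 relatives of the ADAR enzymes, the testis proteins ADAD1 and ADAD2 and the tRNA deaminases ADAT1, ADAT2 and ADAT3, 0 were in a domain in any library. The same count of 0 held for 11 genes of C-to-U deaminases such as the APOBEC3 genes, for 12 genes of double-stranded RNA sensing such as the OAS genes and EIF2AK2 (PKR), and for 9 genes of regulators and partners of ADAR enzymes. Only the list of 23 genes whose RNAs are recoded by A-to-I editing had members in domains, 4 in each control library, 4 in RAB5A ab176916 and 5 in RAB5A ab8898. With 7.38% to 8.32% of all protein-coding genes in a domain, and a mean of 4.69% of autosomal ones, a count of 0 in a list this short is near the background. The 4 or 5 of 23 recoded genes were a larger share than that of all protein-coding genes. On autosomes the count was 1 of 19, near the autosomal share. No set test was run.

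Those in domains were mostly genes of chromosome X. GRIA3, a glutamate receptor subunit, GABRA3, a GABA receptor subunit, and FLNA, filamin A, were covered to 100% in 4 of 4 libraries. HTR2C, a serotonin receptor, was covered to 100% in RAB5A ab8898 and was 0.890 Mb from a domain in each of the others. Its call fell within the joined domain of 92.8 Mb in that library. NOVA1, a neuronal splicing regulator on chromosome 14, was the 1 of the 19 autosomal genes of the list in a domain, at 100% in 4 of 4. In none of these did the call change with RAB5A in both antibodies, as it did for ADARB2.

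The remaining 55 genes were in no domain, 46 of them on a chromosome that had a domain in every library. SRSF9, a splicing factor that can repress editing, was 4462 kb from the nearest domain in both control libraries. In both RAB5A libraries it was 861.7 kb from chr12:118400001-119600000, a domain called in RAB5A alone. OAS2, an enzyme activated by double-stranded RNA, was 5388 kb from a domain in RAB5A ab8898 and 988 kb in each of the others. Both were named after their values were seen. Most protein-coding genes of any kind were outside domains, so lying outside one does not set these 55 genes apart.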

How the data were processed

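Domain lists of 4 H3K9me3 ChIP-seq libraries (2 control, 2 RAB5A) were analysed. The submitters' processing notes name Trimmomatic 0.39, BWA 0.7.17-r1188, Picard 2.22, SAMtools 1.9 and R 3.5.2, and the build hg38. The authors called domains in each library with EDD, a caller of broad domains, in bins of 200 kb with a gap penalty that decides whether neighbouring stretches are joined, and left out unalignable regions. Position is given in the deposited lists with a score with no stated unit, which was ranked within a list and never compared between lists. Read counts are not in the lists, so depth could not be corrected for.

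Genes came from GENCODE 44 on the same build. With Python 3.11.15 and NumPy 2.4.6, the overlap of each gene body with domains (at least 1 bp), its distance to the nearest domain and base composition per bin were computed, and the overlap code was tested on simulated data. Promoters were RefSeq windows. Groups and antibodies came from the labels, which number the antibodies 1 and 2, and differences are also given within each antibody. No test was run.

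The members, the gene lists and the rules were chosen with earlier results of these data known. Genes named are the 3 members, listed genes in a domain in any library, genes of the chr10 domain, nearest neighbours, and protein-coding genes of domains called in 1 condition with both antibodies. Alternatives were a score filter at the lower quartile, a minimum length of 1 Mb, merging within 400 kb, other gene definitions, autosomes alone, pairing by antibody and leaving out each antibody. Some listed genes near a domain are not reported here.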

Additional observations from a re-analysis of the deposited data

How the results depend on the processing

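Of 78 values recomputed under alternatives for 15 results, 65 stayed within the spread or, for counts, within a set ratio of the main count. Of the rest, 13 moved and 0 changed sign. Many of the 65 could not move. Cover of ADAR and ADARB1 and the counts of most gene lists were already 0, and no domain was shorter than 1 Mb. The tally is therefore no measure of robustness. Leaving out domains below the lower quartile of score, which by construction removes the chr10 domain, the difference in ADARB2 cover was 0 percentage points. RAB5A minus control in distance to the nearest domain was then −9.1 Mb for ADAR, −0.9 Mb for ADARB1 and 91.4 Mb for ADARB2. The 91.4 Mb arose because chr10:36800001-38600000, called in all 4 lists, passed the filter in both control lists and in neither RAB5A list. For ADAR, the domain at chr1:12600001, also in all 4 lists, passed in both RAB5A lists and in neither control list. For ADARB1, chr21:39400001-41200000 failed in every list, and the end of the next domain differed between lists. These distances follow from the filter and are no larger difference at ADARB2. The difference in ADARB2 cover was −63.0 over the exons of the canonical transcript, since the last exons lie outside the domain of control ab176916. It was −87.2 with 200 kb added on each side. It was −97.98 with the replicate block by antibody, which must equal the main difference, as each antibody had 1 library per condition. With 1 antibody left out it was from −100 to −95.95. The mean share of protein-coding genes in a domain was 7.71%, and 4.69% over autosomes. With 1 antibody left out, genes in control domains alone numbered 24 to 31 (4 with both) and genes in RAB5A domains alone 34 to 142 (11 with both). Fewer libraries then had to agree, but the 142, with ab8898 alone, included 121 genes in a domain in RAB5A ab8898 and no other library. That list had the joined domain of 92.8 Mb on chromosome X. The mean count of recoded genes in a domain fell from 4.25 to 1 over autosomes. The mean rank of the chr10 domain, 9.77% from the lowest score, was 42.8% per bin. Leaving out an antibody for gene counts, lists and ranks was added after seeing the data. The lists limit every value to called domains at 200 kb, without depth.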
